A study of Mus musculus with 47 samples.

Results

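Expression in the hippocampus of old and young female mice was compared 4 days after sepsis, in 7 of the 47 libraries of the series, each made from poly(A) RNA of 1 whole hippocampus of 1 mouse. The old group had 3 libraries (replicates 2, 4 and 7, mice of 18 to 22 months) and the young group 4 (replicates 1, 2, 3 and 4, mice of 3 to 5 months). A gene was included when its mean over these 7 libraries was at least 5 CPM, the reads of a gene scaled to a common library total, which kept 11673 of the 28032 genes listed. All mice were C57BL/6. Sepsis followed cecal ligation and puncture, in which the cecum is tied and pierced so that gut bacteria leak into the abdomen. On day 4 the septic mice of both ages had also received analgesic, antibiotics and repeated restraint, the last shortly before death. The female controls, 4 old and 4 young, stayed in the home cage without surgery. Sepsis, surgery, drugs and restraint therefore cannot be told apart. Deaths before day 4 occurred among the old mice, and the old libraries therefore come from animals that lived to day 4. Female mice on day 1 (4 libraries per age) and males on day 4 (4 per age) served for tests of whether the age difference depended on the day or the sex.

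Microglia are the resident macrophages of the brain. They make the C1q chains that start the classical complement cascade, and C4 and C3 are the next components along it. In the developing and aging hippocampus C1q and C3 can tag synapses, which microglia then engulf through the complement receptor that contains Itgam. Trem2 and its adaptor Tyrobp form a receptor complex for lipids and debris on the same cells, while Cx3cr1, P2ry12, P2ry13 and Siglech mark microglia at rest. Astrocytes supply part of the brain's C4 and C3 and raise the filament protein Gfap when reactive. In bulk tissue, more cells of a type and more RNA per cell cannot be told apart.

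The 3 C1q genes lie next to each other on the minus strand of chromosome 4 (GRCm38), C1qb from 136880129 to 136886187, C1qc from 136889804 to 136893065 and C1qa from 136895917 to 136898803. The 250 bases before the RefSeq start sites (build GRCm38.p6) of the 2 with an entry are shown because these neighbours differed together with age. Capitals mark matches to GAGGAAGT on either strand, a core of the sites bound by PU.1, the transcription factor on which the macrophage lineage depends.
C1qb, chr4:136886201-136886450, minus strand: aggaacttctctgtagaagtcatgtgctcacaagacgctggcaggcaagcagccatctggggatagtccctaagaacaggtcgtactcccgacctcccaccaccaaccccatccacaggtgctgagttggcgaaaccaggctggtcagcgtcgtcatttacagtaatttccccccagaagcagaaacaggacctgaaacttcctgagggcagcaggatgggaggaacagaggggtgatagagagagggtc
C1qc, chr4:136892915-136893164, minus strand: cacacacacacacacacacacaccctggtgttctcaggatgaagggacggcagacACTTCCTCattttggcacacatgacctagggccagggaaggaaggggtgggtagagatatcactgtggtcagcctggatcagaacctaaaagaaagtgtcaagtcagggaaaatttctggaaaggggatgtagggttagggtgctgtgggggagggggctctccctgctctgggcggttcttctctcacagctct
The window of C1qc held 1 match, starting 195 bases before the RefSeq start site, and that of C1qb held 0. The C1qc window begins at 136892915, so part of it lies within the gene as placed above, which reaches 136893065. The letters occurred in 1 of 13 such windows (7.69%) of the complement and microglial genes called higher below, and in 223 of 8737 windows (2.55%) of all tested genes with an entry. A match is a string of letters and not a measured binding site.

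The first question was which genes differed with age among females 4 days after sepsis. A gene is called here at an unadjusted p below 0.01 in limma's moderated test on log2(CPM + 1), and adjusted p-values are by Benjamini-Hochberg over all 11673 genes. Differences are old minus young on the log2(CPM + 1) scale, which understates those of low genes. On day 4, 468 genes (4.01%) were called, 313 higher (2.68%) and 155 lower (1.33%) in old mice, and 51 (0.437%) had an adjusted p below 0.05. The median difference over all tested genes was 0.0035. The libraries of the ages did not overlap for 749 higher genes (6.42%) and 623 lower ones (5.34%). Without old replicate 4, 256 genes were called, without old replicate 7, 246, and without young replicate 4, 708. After correcting each library for transcript length, 170 genes were called higher and 165 lower.

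Complement genes were higher in the old septic females. C4b, on chromosome 17 from 34728380 to 34743882, was 215, 146 and 156 CPM in old replicates 2, 4 and 7 and 42.9, 60.7, 59.6 and 60.1 CPM in young replicates 1 to 4. The lowest old library was above 2 times the highest young one. The difference was 1.60 ± 0.15 (SE; adjusted p = 0.00065), and 34.6% of the 50-base stretches of C4b also occur in C4a, so reads of these copies may be shared. C1qa was 56.7, 53.5 and 60.0 CPM in old and 30.6, 37.9, 38.0 and 37.8 CPM in young mice (0.64 ± 0.09, adjusted p = 0.019). The ages did not overlap, and young replicate 1 was the lowest for both genes. C1qb (0.36 ± 0.09) and C1qc (0.47 ± 0.11) were also called, with adjusted p of 0.15 and 0.13. C3, the component on which the complement pathways converge, was 7.62, 4.97 and 9.44 CPM in old and 3.68, 1.73, 3.04 and 4.65 CPM in young mice (0.98 ± 0.25, adjusted p = 0.15). Its lowest old library was just above the highest young one. C3 met the filter only through the old group, since its young mean was 3.27 CPM and its mean over the 7 libraries 5.02 CPM, and it kept its call in 11 of 17 alternatives.

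Receptor and lysosomal genes of microglia differed in the same direction. Trem2 was 14.6, 14.9 and 15.9 CPM in old and 6.45, 10.3, 8.08 and 8.35 CPM in young mice, a difference of 0.81 ± 0.14 (adjusted p = 0.030), with a wide gap between the ages. Its adaptor Tyrobp (0.76 ± 0.18) and the lysosomal glycoprotein Cd68 (0.76 ± 0.16) were called with adjusted p of 0.11 and 0.065. Fcer1g, a signalling chain of Fc receptors, was 0.57 ± 0.12 higher (adjusted p = 0.082), and the proteases Ctsz (0.45 ± 0.13) and Ctss (0.32 ± 0.10) were called with adjusted p of 0.18 and 0.24. Ctss, which processes antigens for MHC class II, is close to the limit: 45.1 CPM was the lowest of the old and 43.0 CPM the highest of the young libraries. Of 26 genes on the list of complement and microglial activation, 17 passed the filter, and 12 of these were called higher and 0 lower. Over all tested genes 2.68% were called higher and 1.33% lower. The list's median difference was 0.45, against 0.0035 over all genes. For the list's called genes no library of one age crossed into the other. Call and overlap rest on the same values, so this is not separate evidence. Over all tested genes 6.42% were higher without overlap. Of the 12, C3, Cd68, Fcer1g and Ly86 had a young mean below 5 CPM and met the filter only through the old group, so the count describes the members that passed and is not support for the list. P2ry13, Aspa and Gm48159 likewise met the filter only through the old group. Col1a2, Nid1, Slc6a13, Fmod, Gm17167, Gm13301, Gm5859 and Gm10600 met it only through the young group. All of these are described below.

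Some genes of resting microglia were also called. Of 13 genes on that list 11 passed the filter, and 5 were called higher and 0 lower. The list's median was 0.32, and 0 had an adjusted p below 0.05. The share called higher over all tested genes was 2.68%. Cx3cr1, the receptor for the neuronal chemokine fractalkine, was 35.9, 39.9 and 40.3 CPM in old and 26.8, 30.8, 25.8 and 31.2 CPM in young mice (0.42 ± 0.09, adjusted p = 0.091). P2ry13 (0.47 ± 0.12), Siglech (0.46 ± 0.15) and Itgam (0.36 ± 0.12) were called with adjusted p from 0.14 to 0.25. Itgam stands on this list, although it is named above as part of the receptor for engulfment and not as a marker of rest. Reads of Itgam are uncertain because 68.7% of its exon bases are shared with Gm49368. P2ry12, a purine receptor that guides microglial processes, had at least 13.2 CPM in old and at most 12.3 CPM in young mice and was just not called (0.32 ± 0.10, adjusted p = 0.25). In antigen presentation B2m, the light chain of MHC class I, was 0.72 ± 0.11 higher (48.7, 44.8 and 48.3 against 26.2, 28.2, 24.8 and 35.1 CPM, adjusted p = 0.021), and the immunoproteasome subunit Psmb10 was 0.32 ± 0.09 higher (adjusted p = 0.21). The other 5 of 7 tested members of that list and all 7 tested interferon response genes, Stat2 among them (-0.27, adjusted p = 0.31), were not called.

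The count of complement and microglial genes depended on the libraries. It was 12 of 17 with all 7 libraries, 8 without old replicate 4, 7 without old replicate 7, 9 after the length correction, and 6 without the 3 libraries rich in choroid plexus RNA described below. In an unmoderated test the count was 6, and C1qb, C1qc, C3 and Ctss were among the genes that lost their call. The count of resting microglia was 2 without young replicate 1, 2 without old replicate 4 and 1 without old replicate 7. It was 3 without old replicate 2, without young replicate 3, after scaling by the median of ratios or in an unmoderated test. C4b, C1qa and Trem2 kept their call under every alternative in which they could be tested, whereas Ctss kept it in 5 of 17.

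**Figure D1:**
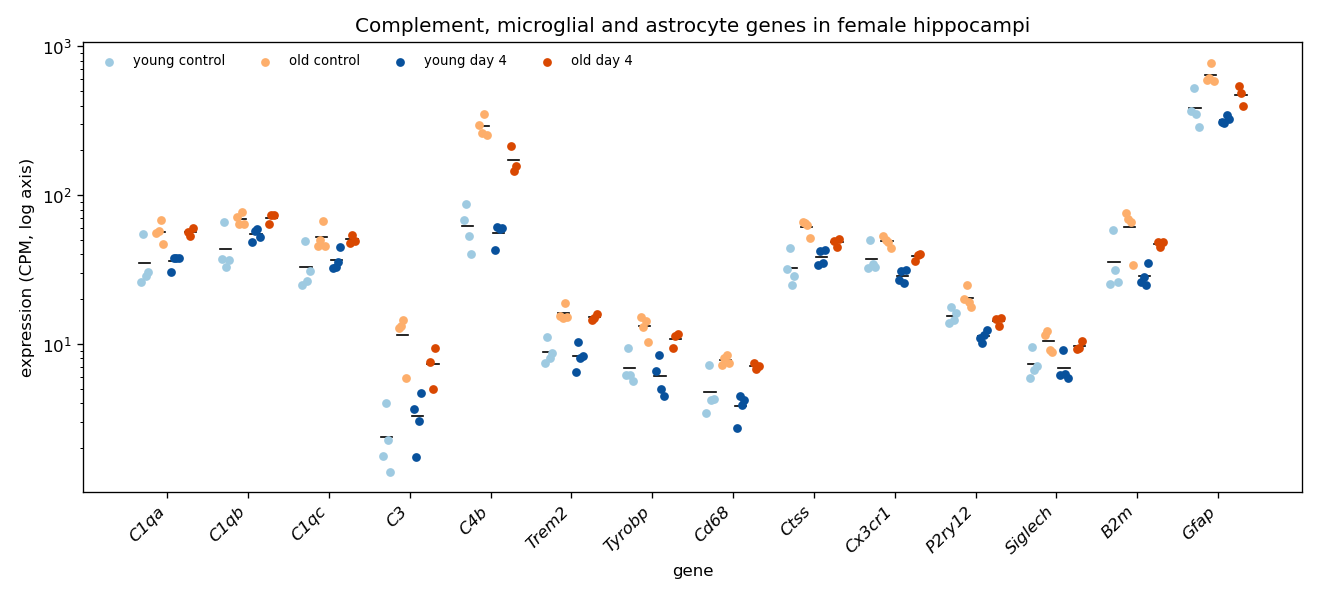
Expression in CPM (log axis) of complement, microglial and astrocyte genes in each female library, with points for mice, short black lines for group means, and colours for young and old controls and young and old mice on day 4. C4b is 146 to 215 CPM in old and 42.9 to 60.7 CPM in young mice on day 4, and the old controls lie higher still, from 255 to 351 CPM.

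The second question was whether these differences were also present without sepsis. Old and young female controls, which share no library with the day 4 groups, differed in 160 of the same 11673 genes (1.37%), 97 higher (0.831%) and 63 lower (0.54%), of which 15 had an adjusted p below 0.05. This count was 71 without old control 1, 74 without old control 2, 250 without old control 4 and 245 without young control 3. Of the 468 genes called on day 4, 389 (83.1%) had the same sign in controls, against 63.4% of all tested genes. Called in both and in the same direction were 51 genes, 33 higher and 18 lower, which is 10.9% of the day 4 calls and 31.9% of the control calls. Across the 11673 genes, which share libraries and are not independent, the log2 differences of day 4 and of controls had a Pearson r of 0.47 and a Spearman rho of 0.39.

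**Figure D2:**
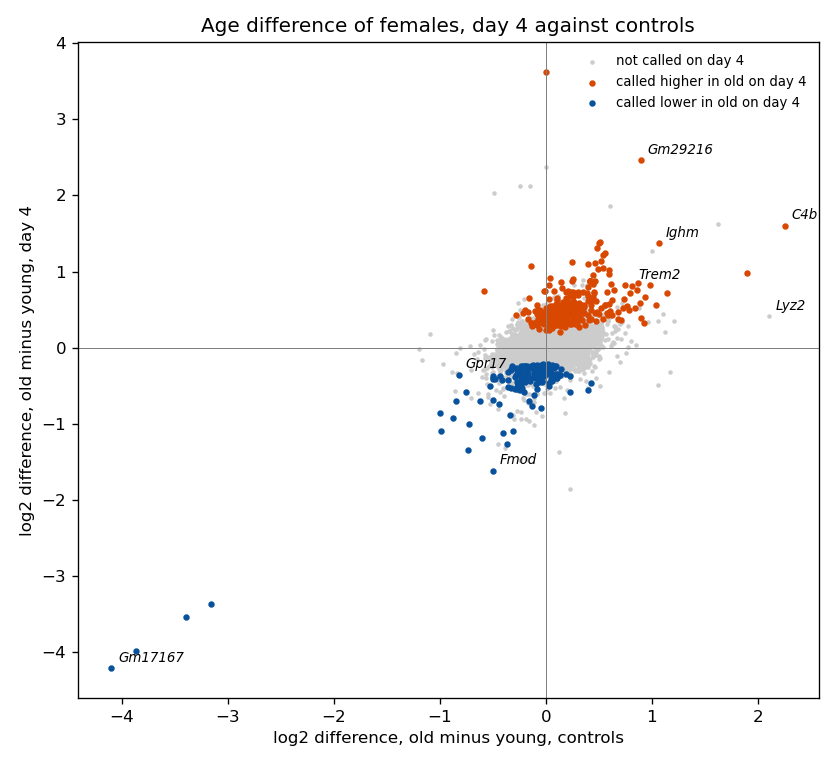
Difference between old and young females for each of the 11673 genes, in controls (horizontal) and on day 4 (vertical), both in log2(CPM + 1), with genes called on day 4 in orange (higher in old) and blue (lower). C4b lies at 2.26 in controls and 1.60 on day 4, and Gm17167 lies near -4 on both axes.

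Of the list of complement and microglial activation, 10 members were called higher in control females and 0 lower, with a median difference of 0.68. C4b was 255 to 351 CPM in the 4 old and 40.4 to 86.9 CPM in the 4 young controls (2.26, adjusted p = 0.00037), so that the ages were again far apart. For Trem2 the difference was 0.81 in controls and 0.81 on day 4, and for C1qa it was 0.74 and 0.64. For Lyz2, the lysozyme of macrophages, it was 2.11 in controls and 0.41 on day 4 (adjusted p = 0.41).

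Whether the day 4 difference itself differed from that of controls was tested as a contrast over the 15 libraries. It was called in 43 genes (0.368%), fewer than the 117 that a threshold of 0.01 gives among this many independent tests, 371 genes had an unadjusted p below 0.05, and 0 had an adjusted p below 0.05 by limma. The 43 became 142 without young control 1, 84 without young control 3, 77 without young day 4 replicate 3, 20 without old day 4 replicate 4, 27 without young control 4, and 28 without old control 1 or young day 4 replicate 1. On the complement and microglial list 2 of 17 genes were called, both as a smaller age difference on day 4. They were Lyz2 (-1.70, adjusted p = 0.78) and Ctss (-0.61, adjusted p = 0.97). Lyz2 was 21.5, 27.2, 24.4 and 14.2 CPM in old controls and 11.8, 9.48 and 15.9 CPM in old septic mice, but 2.70, 6.49, 5.47 and 2.97 CPM in young controls and 6.52, 10.1, 8.23 and 11.4 CPM in young septic mice. The gene was thus called lower on day 4 than in controls in old mice (-0.76, adjusted p = 0.17) and higher in young mice (0.94, adjusted p = 0.75). Serpina3n, a protease inhibitor of reactive astrocytes, had an age difference of 0.80 in controls and 0.09 on day 4 (contrast -0.71, adjusted p = 0.97). Its values were 75.5, 75.5 and 64.6 CPM in old and 59.9, 69.9, 77.7 and 62.8 CPM in young mice on day 4, which overlapped fully. The contrast of C4b was -0.66 (adjusted p = 0.97) and was not called, although C4b was called lower on day 4 than in controls in old mice (-0.76, adjusted p = 0.057).

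Other glia and lymphoid genes gave single calls. Ighm, the constant region of the IgM heavy chain made by B and plasma cells, was 16.1, 19.7 and 14.9 CPM in old and 4.66, 6.52, 6.05 and 6.46 CPM in young mice (1.37 ± 0.14, adjusted p = 0.0014). It was also higher in old controls (1.07, adjusted p = 0.25), and it was the single member of 17 on the lymphocyte list that passed the filter. Gfap was 541, 486 and 397 CPM in old and 310, 305, 345 and 327 CPM in young mice (0.55 ± 0.10, adjusted p = 0.042). The other 14 tested genes of reactive astrocytes and the acute phase were not called. S100b, a calcium-binding protein of astrocytes and some oligodendrocytes, was 0.53 ± 0.12 higher (adjusted p = 0.091), the only one of 14 astrocyte markers called. As 2.68% of all tested genes were called higher, single calls are not read as results about these lists.

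A few genes of myelin and its cells were called in each direction, against 2.68% higher and 1.33% lower over all tested genes. Of 24 myelin genes, Aspa (0.57 ± 0.15), Ermn (0.52 ± 0.15), Pllp (0.30 ± 0.08) and Car2 (0.28 ± 0.08) were higher, and Cldn11 (-0.38 ± 0.12) and Fa2h (-0.32 ± 0.09) lower, with adjusted p from 0.15 to 0.24. No myelin gene was called higher without old replicate 2 or without old replicate 7, and none lower without young replicate 1, young replicate 2, old replicate 2 or old replicate 4. Among 11 tested progenitor genes Bcas1, a marker of oligodendrocytes that begin to myelinate, was 154, 118 and 126 CPM in old and 88.6, 75.2, 83.6 and 93.3 CPM in young mice (0.63 ± 0.10, adjusted p = 0.028). The receptor Gpr17 of committed progenitors (-0.36 ± 0.11) and the matrix protein Tnr (-0.23 ± 0.07) were lower with adjusted p of 0.25 and 0.21. Neither was called after the length correction, nor without young replicate 1, young replicate 4, old replicate 4 or old replicate 7. Gpr17 was 33.0, 32.2 and 25.6 CPM in old and 36.5, 35.4, 38.3 and 45.6 CPM in young mice, and its difference in controls was larger (-0.82, adjusted p = 0.018). Of 17 genes of immature neurons, Dpysl5 (-0.50 ± 0.10, adjusted p = 0.065) and Dpysl3 (-0.37 ± 0.09, adjusted p = 0.13), which steer growing axons, were lower and 0 higher, and the list's median was -0.20. Both were lower in old controls too (-0.53 and -0.43), and neither was called without the libraries rich in choroid plexus RNA.

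Part of the genes of vessel walls, meninges and matrix were called lower in old mice. Of 10 tested markers of mural cells and meninges 6 were called lower and 0 higher, with a median of -0.71. Over all tested genes 1.33% were called lower. Myh11, the smooth muscle myosin, was 5.88, 5.20 and 4.87 CPM in old and between 6.91 and 19.0 CPM in young mice (-1.18 ± 0.26, adjusted p = 0.082). Acta2, smooth muscle actin, was 5.63, 5.35 and 4.76 CPM in old and 10.5, 7.17, 14.2 and 16.1 CPM in young mice (difference of -1.002 ± 0.22, adjusted p = 0.079). For both genes the old libraries were close together and young replicate 2 was the nearest to them. The pericyte genes Pdgfrb (-0.40 ± 0.09) and Vtn (-0.42 ± 0.09) and the meningeal transporters Slc6a13 (-1.12 ± 0.24) and Slc6a20a (-1.27 ± 0.37) were called with adjusted p from 0.075 to 0.21. Of 19 tested collagens and basement membrane genes Col1a2 (-1.34 ± 0.29), Nid1 (-0.74 ± 0.20), Hspg2 (-0.48 ± 0.15), Lamb2 (-0.42 ± 0.11) and Fn1 (-0.25 ± 0.08) were lower and 0 higher. Fmod and Bgn are small proteoglycans that bind collagen. Fmod was 5.42, 5.76 and 1.85 CPM in old and 13.9, 7.34, 23.4 and 17.1 CPM in young mice (-1.62 ± 0.36, adjusted p = 0.088), and Bgn differed by -0.69 ± 0.20 (adjusted p = 0.21). Ptgds, the prostaglandin D synthase made in meninges and choroid plexus, was 365, 295 and 215 CPM in old and 623, 426, 824 and 625 CPM in young mice (-1.09 ± 0.21, adjusted p = 0.051). Mfsd2a, a lipid transporter of brain endothelium, was lower (-0.58 ± 0.14, adjusted p = 0.11), the only one of 16 tested endothelial genes called.

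The amount of choroid plexus RNA differed between libraries. Choroid plexus markers summed to 1740 and 4607 CPM in young replicates 1 and 3 and 2009 CPM in old replicate 2, but to 30.5 to 87.4 CPM in the other 4 libraries. Of that list's 13 tested genes 0 were called and all 13 had a negative difference, with a median of -0.90. Ttr, which carries thyroid hormone and is abundant in choroid plexus, was 1792, 4.52 and 47.2 CPM in old and 1523, 56.1, 4039 and 17.2 CPM in young mice. The summed mural and meningeal markers were 286, 236 and 218 CPM in old replicates 2, 4 and 7 and 330, 261, 484 and 358 CPM in young replicates 1 to 4. The highest sum was in the library richest in choroid plexus RNA, young replicate 3. Next came young replicate 4, which is poor in it and had the highest Acta2. Whether choroid plexus RNA bears on the mural and meningeal difference was not tested. Leaving out young replicates 1 and 3 and old replicate 2 kept only old replicates 4 and 7 and young replicates 2 and 4. The mural and meningeal list then had 3 genes called lower in place of 6, and the collagen list 1 in place of 5. Myh11 (-0.97) and Fmod (-1.49) were then not called, whereas Ptgds (-1.03) and Mfsd2a (-0.55) kept their call. Bgn was then not called, and of the complement genes C3, C1qc and Ctss lost their call, while C4b, C1qa, C1qb and Trem2 kept it. In an unmoderated test 2 mural and meningeal genes and 0 collagen genes were called lower. In controls Myh11 (-0.60, adjusted p = 0.63), Acta2 (-0.72, adjusted p = 0.63) and Mfsd2a (-0.75, adjusted p = 0.36) were called lower in old mice too, with 1 library of each age rich in choroid plexus RNA. Collagen calls were 1 without old replicate 2 and 2 without old replicate 4.

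**Figure D3:**
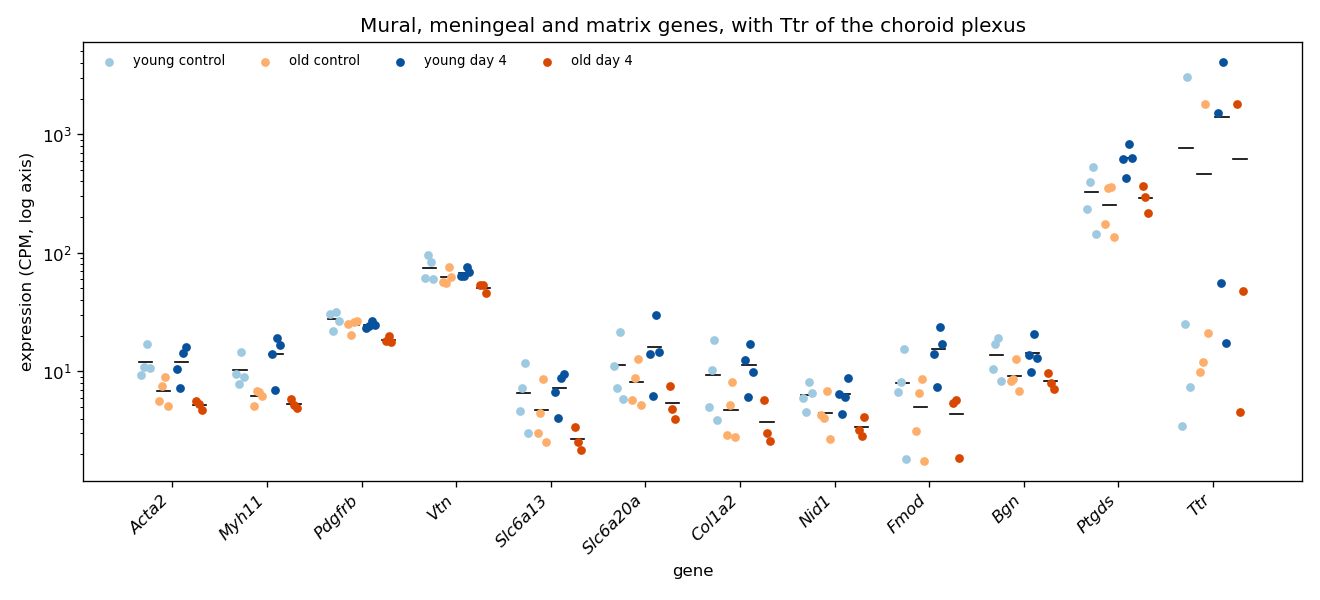
Expression in CPM (log axis) of mural, meningeal and matrix genes in each female library, with Ttr of the choroid plexus at the right; points are mice and short black lines are group means. Old mice on day 4 lie lowest for Myh11 (4.87 to 5.88 CPM, young 6.91 to 19.0 CPM), and Ttr separates the libraries into a high and a low set within each group.

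Genes with short transcripts made up most of the higher calls. Of the 196 tested genes whose annotated transcripts average under 500 bases, 75 (38.3%) were called higher and 0 lower, with a median difference of 0.44. From 500 to 1000 bases 117 of 1519 (7.70%) were higher and 4 lower. Over 4000 bases the order was turned: 5 of 960 (0.521%) were higher and 42 (4.38%) lower, with a median of -0.07. In controls the median difference of the shortest class was 0.15 and that of the longest 0.05. Of the 446 tested pseudogenes 87 (19.5%) were called higher, against 217 of 10946 protein-coding genes (1.98%).

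**Figure D4:**
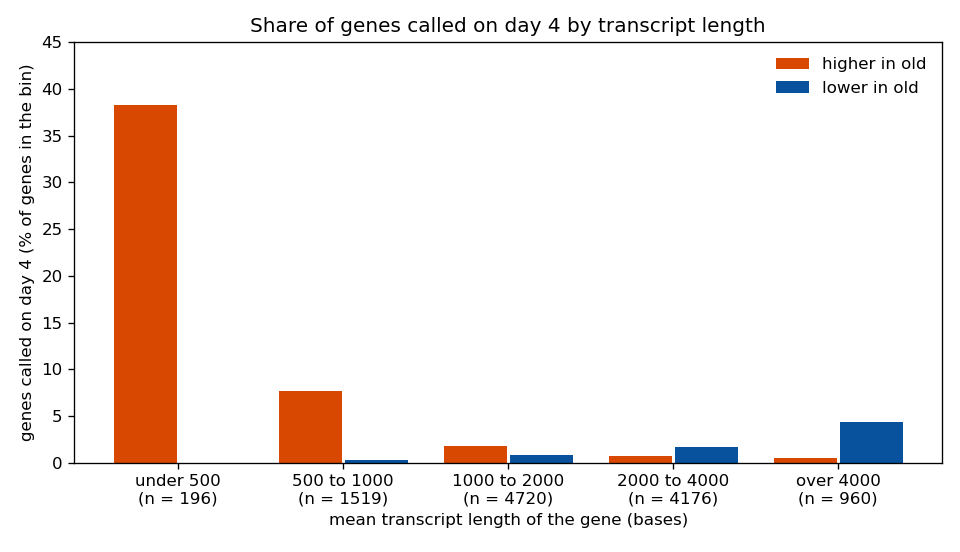
Share of tested genes called on day 4, in percent, by the mean length of the gene's annotated transcripts in bases, with orange bars for genes higher and blue bars for genes lower in old females. The share called higher goes from 38.3% under 500 bases to 0.521% over 4000 bases, while the share called lower goes from 0 to 4.38%.

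The ribosomal and respiratory lists were added after the values had been seen, and how many of their members have short transcripts was not counted. Among all tested genes 2.68% were called higher. Of 78 tested cytosolic ribosomal protein genes 15 were called higher and 0 lower (median 0.22), of 51 ribosomal protein pseudogenes 25 and 0 (median 0.48), and of 36 subunits of complex I, the first enzyme of the respiratory chain, 13 and 0 (median 0.23). After the length correction the counts were 6, 9 and 5 higher, and 2 pseudogenes were then called lower. Of 15 mitochondrially encoded genes 3 were called higher, and 1 higher and 2 lower after the length correction. That count of 3 was 0, with 2 lower, without the libraries rich in choroid plexus RNA, 0 with all 12 groups in 1 fit, and 10 without young replicate 4. Without old replicate 4 the count for complex I was 5. Rps29, a protein of the small ribosomal subunit, was 38.1, 45.8 and 39.3 CPM in old and 22.7, 25.0, 13.8 and 14.7 CPM in young mice (1.11 ± 0.18, adjusted p = 0.028). Its difference in controls was 0.46 (adjusted p = 0.63), and the old and young control libraries overlapped.

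Among the 10 genes with the largest positive difference that met the rule for naming were several copies of other genes, and reads of these are uncertain. Gm14303 (1.38) shares 100% of its 50-base stretches with Rps29 and its other copies, Gm10443 (1.25) with Rps28 and its copies, and Rpl38-ps2 (1.14) with Rpl38 and its copies. After the length correction these differences were 0.67, 0.62 and 0.52, and Gm14303 was no longer called. Gm13611 (1.22, and 0.76 after the length correction) shares 68.4% with Rpl36 and its copies, and Gm9844 (1.30 ± 0.14, adjusted p = 0.0023) 60.8% with Tmsb10, an actin-binding thymosin, and Gm3788. Gm29216, on chromosome 1 from 24615706 to 24616197, shares 97.1% with the mitochondrial gene mt-Co1 and other copies of it. It was 544, 257 and 824 CPM in old and 55.2, 135, 40.2 and 195 CPM in young mice (2.46 ± 0.50, adjusted p = 0.065), but 122 to 326 CPM in old and 4.39 to 493 CPM in young controls, and without the libraries rich in choroid plexus RNA it was not called. Mid1, a ubiquitin ligase whose gene crosses the edge of the pseudoautosomal region in this species, was 46.2, 58.0 and 26.8 CPM in old and 24.0, 17.5, 20.0 and 16.6 CPM in young mice (1.07 ± 0.21, adjusted p = 0.063), and 28.7% of its 50-base stretches occur in other genes. The remaining 3 of the 10 are C4b, Ighm and Rps29, given above. Gm48159 had a larger difference (3.62, adjusted p = 0.19) but was listed at 0 in old replicate 2, at 42.5 and 43.0 CPM in the other old libraries and at a mean of 0.0103 CPM in the young ones. It was singled out after its values had been seen.

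Among the 10 lower genes, besides those of vessels and matrix, were Pdzd2 and Adnp. Pdzd2, a protein with several PDZ domains, was 71.0, 65.1 and 65.5 CPM in old and 99.8, 96.1, 125 and 96.4 CPM in young mice (-0.62 ± 0.10, adjusted p = 0.021). Adnp, a regulator of chromatin, was 8.09, 11.4 and 7.96 CPM in old and 13.3, 19.0, 16.5 and 17.2 CPM in young mice (-0.79 ± 0.15, adjusted p = 0.047), but 82.1% of its exon bases are shared with Gm20716. Gm11249, a processed pseudogene that shares 60.0% of its stretches with Rps2 and other genes, was lower too (-0.86 ± 0.22, adjusted p = 0.13). Its difference was -0.35 without the libraries rich in choroid plexus RNA, and it was called neither then nor without old replicate 2.

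The largest negative difference lay in a cluster of predicted genes that did not follow age in every group. Gm17167, on chromosome 4 from 42206998 to 42235313, was at most 0.0904 CPM in the 3 old libraries and 19.7, 18.4, 21.8 and 14.7 CPM in the young ones (-4.22 ± 0.15, adjusted p = 1.3e-07). Its neighbours Gm13301, Gm5859 and Gm10600 were likewise at most 0.135 CPM in old and at least 8.01 CPM in young mice, and these 4 genes share exons or sequence with each other. They met the filter only through the young group. The same 4 were at or near 0 in all 11 old female libraries, and also in the 4 old males of day 4. In the other 32 libraries, which include old male controls and old males of day 1, Gm17167 was 12.3 to 30.2 CPM. These 15 libraries were picked by the cluster's own values. Its 4 genes were the only tested ones for which these 15 libraries all lay below the other 32, and 0 genes had all 15 above. Gm13302, Gm21541, Gm13304 and Gm17081 of the same region did not pass the filter and split the libraries likewise. Gm13304, for example, was at most 0.0792 CPM in the 15 and at least 1.44 CPM in the 32. Genes on either side, Ccl27a (37.6 to 48.5 against 31.8 to 39.7 CPM) and Phf24 (221 to 249 against 218 to 274 CPM), overlapped between old and young mice. Within females, age and this difference between the mice cannot be told apart.

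Few genes that answer glucocorticoids, or that the study names as changed by day 4 in all groups, were called. With 3 against 4 libraries, a missing call does not show that the ages were alike. The shares called over all tested genes were 2.68% higher and 1.33% lower. Of 18 glucocorticoid-induced genes 1 was called, Sult1a1, a sulfotransferase, at 8.64, 6.32 and 8.61 CPM in old and 9.63, 9.71, 15.6 and 13.1 CPM in young mice (-0.54 ± 0.17, adjusted p = 0.25). Fkbp5, a brake on the glucocorticoid receptor, was 93.9, 87.8 and 81.6 CPM in old and 80.9, 82.3, 104 and 103 CPM in young mice (-0.07 ± 0.11, adjusted p = 0.81). Against their controls Fkbp5 was called higher on day 4 in old (0.64, adjusted p = 0.027) and young mice (0.48, adjusted p = 0.999). Sgk1, a kinase induced by these hormones, ranged from 73.2 to 135 CPM in old and 59.2 to 146 CPM in young mice (0.28 ± 0.30, adjusted p = 0.73), and Plin4, a coat protein of lipid droplets, from 25.7 to 29.3 and 26.7 to 75.3 CPM (-0.56 ± 0.26, adjusted p = 0.4). Plin4 was higher on day 4 than in controls by 2.29 in old and 1.99 in young mice (adjusted p = 1.5e-05 and adjusted p = 0.71). Cxxc1 (0.07), Epha10 (-0.16), Ly6a (-0.19) and Ednrb (0.02) were not called either. Rasgrp3, an activator of Ras proteins, was called higher in old mice (0.47 ± 0.14, adjusted p = 0.21), with 8.82, 9.33 and 10.8 CPM against 6.75, 8.29, 5.94 and 5.88 CPM, and it differed by 0.48 in controls (adjusted p = 0.26). The list of genes changed in all groups was chosen by the study on these samples and is not independent evidence.

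Neuronal and other lists gave few calls, against 2.68% higher and 1.33% lower over all tested genes. Single calls here are not read as results about a list. None of 21 immediate early genes and none of 23 heat shock and unfolded protein response genes was called, and Jun (0.05, adjusted p = 0.88) and Hspa8 (-0.07, adjusted p = 0.84) are examples. Of 30 genes of glutamatergic synapses Grm2, an inhibitory glutamate receptor, was lower (-0.38 ± 0.09, adjusted p = 0.098), and of 22 genes of GABAergic neurons Cck, a neuropeptide, was higher (0.35 ± 0.10, adjusted p = 0.2). Of 16 clock genes Per3 (-0.37 ± 0.08) and Nr1d1 (-0.36 ± 0.10) were lower, and of 23 sterol biosynthesis genes Fdps (0.44 ± 0.12) and Nsdhl (0.34 ± 0.09) were higher, with adjusted p from 0.090 to 0.19. Of 13 tested markers of hippocampal neurons, which were present in all libraries, Wfs1 of CA1 neurons was lower (-0.35 ± 0.09, adjusted p = 0.14). Their summed level was 944 to 971 CPM in old and 1055 to 1148 CPM in young mice, and that of thalamic and cortical markers 249 to 283 and 299 to 342 CPM, with 0 of 9 of the latter called. Haemoglobin genes summed to 1070, 311 and 41.3 CPM in old and 36.0, 182, 13.2 and 63.7 CPM in young mice, with 0 of 4 called. No marker of neutrophils and monocytes passed the filter, and their sums were 4.16 to 8.95 and 3.83 to 8.73 CPM.

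**Figure D5:**
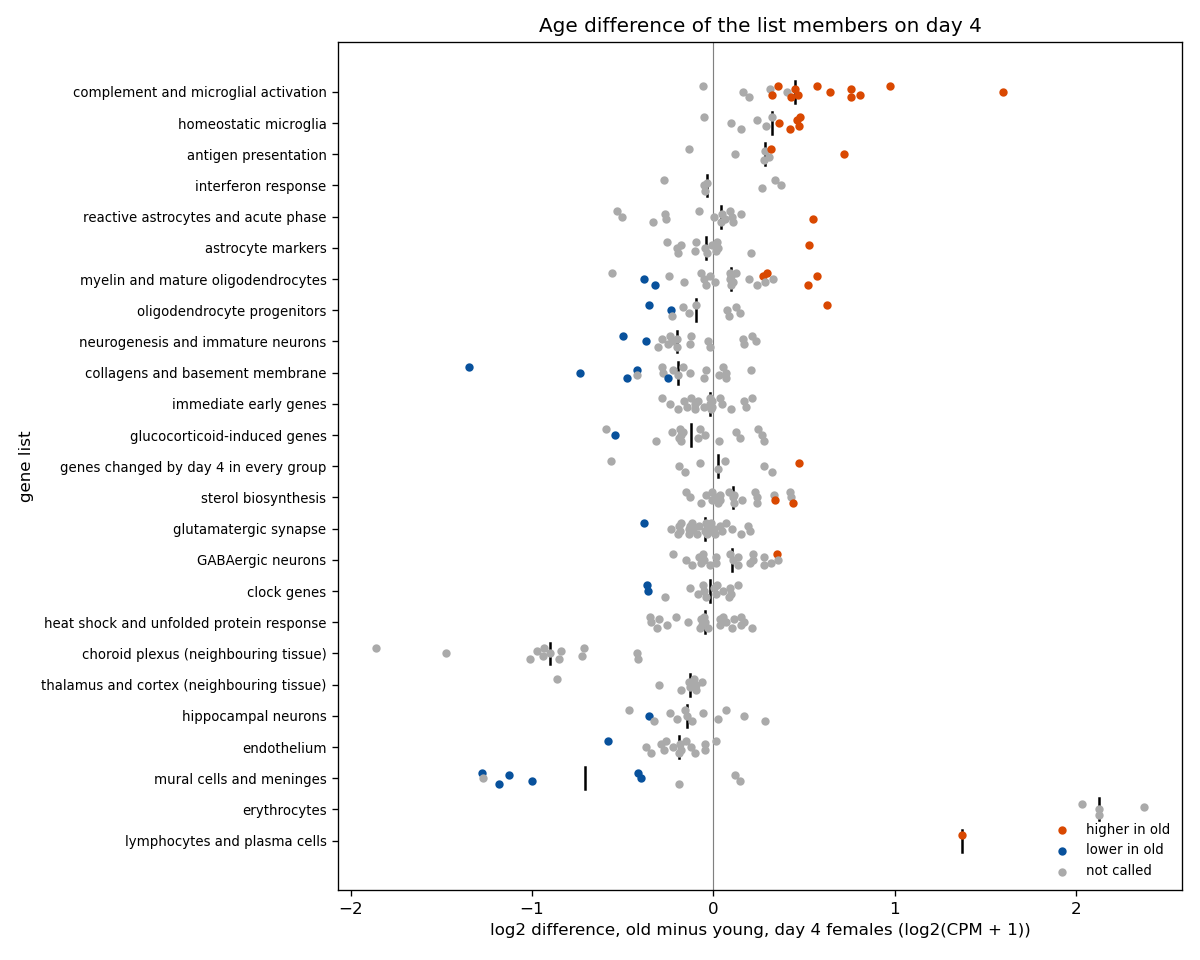
Difference between old and young females on day 4, in log2(CPM + 1), for each tested gene of the lists, with orange for genes called higher, blue for lower and grey for not called; black bars are list medians. The microglial lists lie to the right (medians 0.45 and 0.32), mural cells and meninges to the left (-0.71), and the grey choroid plexus and erythrocyte genes lie far from 0 without a call.

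The age difference of septic females also differed between day 1 and day 4. Time, antibiotic doses, restraint and survival of the old mice all differ between these days and cannot be told apart. On day 4 minus day 1 the contrast was called in 1157 genes (9.91%), 677 with a more positive age difference on day 4 (5.8%) and 480 with a more negative one (4.11%), and 639 had an adjusted p below 0.05. The reactive astrocyte and acute phase list had 7 of 15 genes called as more negative and 0 as more positive, the glucocorticoid list 7 of 18 and 0, and the clock list 5 of 16 and 0. Serpina3n (-1.13, adjusted p = 0.0099), Gfap (-0.51, adjusted p = 0.033) and Fkbp5 (-0.57, adjusted p = 0.026) were among them. Resting microglia had 5 of 11 genes called as more positive on day 4 and 0 as more negative, with Cx3cr1 at 1.06 (adjusted p = 0.0052). Gpr17 was also called as more positive. On the complement and microglial list 2 of 17 genes were called, Lyz2 (-1.14) and Ctss (-0.68), both as more negative, with adjusted p of 0.080 and 0.097. For C1qa (0.30, adjusted p = 0.37), C4b (-0.09, adjusted p = 0.86) and Trem2 (-0.10, adjusted p = 0.84) no difference between the days was called.

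Between the sexes the age difference on day 4 differed in 333 genes (2.85%), 138 of them more negative in females (1.18%), and 0 had an adjusted p below 0.05, while 1384 had an unadjusted p below 0.05. One male library, young replicate 3 of day 4, carried Xist and almost no Y-linked RNA, against its label, and stayed in its labelled group. Without it 292 genes were called. The count was 675 without young male replicate 4, 636 without young female replicate 4, 184 without young female replicate 3 and 185 without old female replicate 7. On the complement and microglial list 3 of 17 genes were called, all as a smaller age difference in females: C4b (-1.11, adjusted p = 0.19), C1qb (-0.60, adjusted p = 0.25) and Ctss (-0.69, adjusted p = 0.19). In males the age difference on day 4 was 2.71 for C4b, 0.96 for C1qb and 1.01 for Ctss. Mural and meningeal markers were more negative in females in 3 of 10 genes, Pdgfrb (-0.42, adjusted p = 0.34), Vtn (-0.54, adjusted p = 0.27) and Slc6a13 (-1.17, adjusted p = 0.34). In all 7 female libraries of day 4 Xist was 218 to 387 CPM and the sum over Uty, Kdm5d, Eif2s3y and Ddx3y of the Y chromosome was at most 0.0432 CPM, as labelled.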

How the data were processed

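The authors sequenced poly(A) RNA of whole hippocampi and, per the paper's methods and the submitters' processing notes, aligned reads to mm10 with STAR and quantified genes in Partek Flow (no versions stated). They scaled libraries with TMM and deposited CPM for 28032 genes and 47 columns, 0 of them without a sample. Neither the strand setting nor the handling of shared reads is stated in the sources used here. Low values lie on multiples of a step, the value of 1 read, which gives 19104003 to 23029246 reads in genes for the 7 day 4 female libraries. As 81.7% to 83.4% of values under 1000 reads were within 0.05 reads of a whole number, whole reads were not recovered and no count model was used.

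Genes averaging 5 CPM or more across the 7 libraries were tested with limma 3.58.1 (R 4.3.3, package data.table, version 1.17.8) on log2(CPM + 1), two-sided, with moderated variances that follow expression, using only the libraries of each comparison. This replaces the one-way ANOVA of the paper. A call is an unadjusted p below 0.01. An exact permutation of 3 against 4 libraries cannot give a p below 0.0571. Each library is 1 mouse. Genes named are the 10 higher and 10 lower with the largest difference among called genes averaging 10 CPM or more without overlap of the ages, called members of each list (up to 4 per direction, and a few further called members of the microglial, mural and matrix lists, named after their values were seen) or else its 2 highest genes, 16 genes the study names, and the 4 most significant per direction of each contrast. A few genes that this rule names are not reported here. Members and lists were chosen with earlier results of these data known. Positions, exon overlap and 50-base stretches are from GENCODE vM21 (GRCm38), and promoters from RefSeq. The tests were checked on simulated data. Alternatives were pseudocounts of 0.1 and 5, no filter, a mean of at least 50 CPM, scaling by the median of ratios, an unmoderated test, 1 fit of all 12 groups, a lowess correction for GC content (span 0.3), a replicate block and leaving out each library. A correction for transcript length and leaving out libraries with over 1000 CPM of choroid plexus markers were added after seeing the data. Numbers in labels pair replicates 2 and 4 only, with correlations of deviations of -0.32 and 0.07, so they were not treated as pairs.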

Additional observations from a re-analysis of the deposited data

Results flagged for a closer look

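Of 61 values of the day 4 groups tested for a library that stands apart from the other 3 of its group, 4 had one, and chance gives about 1 in 20. C1qa (30.6 CPM) and C4b (42.9 CPM) were lowest in young replicate 1, Pdzd2 (125 CPM) was highest in young replicate 3, and the summed markers of neutrophils and monocytes (8.73 CPM) were highest in young replicate 2. Old mice were too few on day 4 for this test.

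Age differences that differed between conditions were taken as the 4 genes per direction with the smallest p in each contrast, on the log2(CPM + 1) scale in limma. Day 4 minus controls was 1.32 for Gm14150, 0.70 for Nt5c, 0.66 for Rpl18-ps2, 0.76 for Gm11273, -1.70 for Lyz2, -0.71 for Serpina3n, -0.43 for Birc2 and -0.50 for Prkd1, with adjusted p from 0.774 to 0.974, so none passed the correction. Day 4 minus day 1 was 1.91 for Cbfa2t3, 1.22 for Fn3k, 1.18 for Banp, 1.98 for Kctd21, -1.28 for Adamts1, -1.01 for Uvssa, -2.63 for Ctla2a and -1.14 for Stx17, with adjusted p from 1.67e-05 to 0.00131. Females minus males on day 4 was 0.76 for Mrpl23-ps1, 1.75 for Gm9844, 0.75 for Cops9, 0.74 for Sf3b6, -0.82 for Selenbp1, -1.11 for C4b, -0.68 for Fam107a and -0.89 for Pnpla7, each with an adjusted p of 0.187.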

How the results depend on the processing

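The 468 calls of day 4 were 467 and 472 with pseudocounts of 0.1 and 5 and 473 after scaling by the median of ratios, but 729 without a filter, 154 at a mean of at least 50 CPM, 311 in an unmoderated test, 294 with all 12 groups in 1 fit, 703 after GC correction, 301 without the libraries rich in choroid plexus RNA and 246 to 708 when 1 library was left out. The 160 calls in controls were 459 without a filter, 28 at 50 CPM, 711 with all groups and 71 to 250 with 1 library left out. For day 4 minus controls the 43 calls were 227, 5 and 77 under those settings, 67 after GC correction and 20 to 142. For day 4 minus day 1 the 1157 were 1790 without a filter, 311 at 50 CPM, 627 without the choroid plexus libraries and 866 to 1317, and for females minus males the 333 were 555, 97, 179 and 184 to 675. A filter changes how many genes are tested, and leaving out libraries how many samples. The cause of the other shifts was not tested.

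The replicate numbers did not pair the samples, since day 4 females share only 2 numbers. With a replicate block the counts were 218 on day 4, 23 for day 4 minus controls and 97 between the sexes, and on day 4 it left 4 complement and microglial, 0 resting microglial and 0 lower mural genes called. The value of Ednrb, day 4 log2 fold change old minus young (0.02), was -0.0246 after GC correction, -0.0168 with the block and -0.0411 to 0.0786 with 1 library left out. The value of Ly6a, day 4 log2 fold change old minus young (-0.19), was -0.368 to 0.0724 with 1 library left out. Neither was called. Of the values of named genes under alternatives, 516 kept direction and side of the threshold, 75 lost their call, 7 gained one and 5 changed sign. The filter at 5 CPM set which genes the comparisons cover, and depth was not varied.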

Other observations

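The protocadherin clusters were chosen after their values had been seen, and no test compared them. These adhesion proteins give neurons their identity at the surface. Of 12 tested beta-protocadherins 5 were called higher in old females on day 4 and 0 lower, with a median difference of 0.33, and 4 were called higher in controls (median 0.29). Their summed level was 144 to 153 CPM in old and 111 to 123 CPM in young mice. Of 21 gamma-protocadherins, whose transcripts share exons so that reads may be split between them, 1 was called higher and 4 lower (median -0.16), and their sums were 678 to 793 and 762 to 902 CPM. Over all genes 2.68% were called higher and 1.33% lower. Without the libraries rich in choroid plexus RNA 2 beta-protocadherins were called higher and 2 gamma-protocadherins lower.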
